A study of Mus musculus with 16 samples.

Results

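Mitochondria in skeletal muscle fuse and divide continuously, and their number is renewed by biogenesis and by removal of damaged organelles. Mfn1 and Mfn2 encode the mitofusins, which join outer membranes, and Opa1 encodes the dynamin-like GTPase that joins inner membranes. Dnm1l encodes Drp1, the GTPase that constricts and divides the organelle, and Fis1 encodes an outer membrane protein linked to fission. Pink1 encodes a kinase that marks damaged mitochondria for mitophagy. Nrf1 and Esrra encode nuclear transcription factors of mitochondrial genes, Tfam encodes the packaging and transcription factor of mitochondrial DNA, and Polg encodes the catalytic subunit of its polymerase.

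These 10 genes were chosen by name, and all 10 were found among the 23237 gene names of the mRNA data. The skeletal muscles came from 16 male C57BL/6 mice (C57BL/6J in the protocols), purchased at 6 weeks of age, with 4 mice in each of 4 groups and 1 library per mouse. The control group received a normal diet, and the other groups a high-fat diet (HFD) with 60% fat, which was fed for 8 weeks before treatment. The HFD group had no treatment, while the HFD + RSV group then received resveratrol (RSV, spelled reveratrol in the labels) and the HFD + metformin group metformin, each for 6 weeks. The labels name no transgene or deletion. The muscle sampled is not named, and which of the sequenced mice had received insulin before tissue collection is not given. The labels of the 4 HFD mice share a leading number that no other group has, and its meaning is not given, so that what it marks cannot be told apart from what sets the HFD group apart from the control group and from both treated groups in any comparison with HFD.

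The total mRNA count per mouse ranged from 17625909 to 29761026. The 5 muscle fibre markers (Ckm, Acta1, Tnnt3, Ttn, and Mb) summed to between 132940 and 254390 CPM, a unit that scales counts by library size. Ttn held most of this sum in every mouse, at 108930 to 219310 CPM. The labels' protocol speaks of retinas, but the 5 retina markers in the data summed to at most 1.45 CPM in any mouse. White adipocyte markers (Adipoq, Plin1, Lep, Retn, Cfd, and Cidec) summed to 506 to 2494 CPM in control mice and to 50.5 to 582 CPM in HFD mice. They summed to 100.4 to 755 CPM in the HFD + RSV group and 27.5 to 2497 CPM in the HFD + metformin group. The libraries of control mouse 3 and HFD + metformin mouse 3 stood apart with the highest sums. The 6 slow fibre markers summed to 9.77 to 1487 CPM in control mice, 6.84 to 118 CPM in HFD mice, 19.7 to 873 CPM in the HFD + RSV group, and 89.2 to 306 CPM in the HFD + metformin group. In bulk tissue, fewer cells of a type and less RNA per cell cannot be told apart.

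Motifs of nuclear factors that are known to act on mitochondrial genes were searched upstream of the members. In the RefSeq promoters of GRCm38, each with 250 bases before and 50 bases after a start, 15 promoters belonged to the 10 genes. A consensus motif of NRF1, the product of Nrf1, was searched on both strands with a base in its middle left free. This motif occurred in 2 of the 15 promoters, those of Opa1 and Pink1. It occurred in 4.6% of all 32851 promoters. The motif CCGGAAGT, known to be bound by the GABP complex, occurred in 5 of the 15 promoters. These belonged to Mfn1, Fis1, Tfam, and Polg, and 3.89% of all promoters had the motif. The ERR motif TCAAGGTCA, found in 0.423% of all promoters, and the CRE motif TGACGTCA, found in 1.79%, matched none of the 15. The matches of different motifs lay in different promoters. The median share of G and C bases was 62.3% in the 15 promoters and 52.7% in all promoters, which the shares above do not account for. The 100 bases before the start are given 5′ to 3′ for 4 of the 6 genes with a match, with the motif in capitals.
Opa1 (chr16:29579234-29579333, plus strand): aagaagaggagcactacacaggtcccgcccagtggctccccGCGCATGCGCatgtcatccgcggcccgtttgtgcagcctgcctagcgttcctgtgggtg
Pink1 (chr4:138326297-138326396, minus strand): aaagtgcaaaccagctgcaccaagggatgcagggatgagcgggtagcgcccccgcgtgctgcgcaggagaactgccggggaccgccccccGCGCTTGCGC
Mfn1 (chr3:32529382-32529481, plus strand): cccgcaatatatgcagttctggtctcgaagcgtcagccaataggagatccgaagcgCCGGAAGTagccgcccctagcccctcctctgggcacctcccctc
Fis1 (chr5:136953175-136953274, plus strand): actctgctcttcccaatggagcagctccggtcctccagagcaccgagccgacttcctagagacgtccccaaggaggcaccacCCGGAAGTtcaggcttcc
The Fis1 bases precede the start of Fis1-202, which held 5.38% of the count of Fis1, while in the promoter of Fis1-201 (83.0%) the match lay 19 bases after the start. The match in Pink1 is on the opposite strand, among 11 bases that GENCODE counts as exon. The match in Opa1 reads the same on both strands. These matches describe letters only, since no binding was measured.

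All 10 genes were expressed in every mouse. On the FPKM scale, which divides a count by transcript length and library size, Pink1 was the highest with a mean of 228 ± 29.8 (SD, n = 16 mice). Mfn2 followed at 123 ± 14.3 and Mfn1 at 55.3 ± 9.0. Pink1 exceeded Mfn2 in 16 of 16 mice, and Mfn2 exceeded Mfn1 in 16 of 16 mice. Fis1 had a mean FPKM of 48.2 ± 3.67, Esrra 36.0 ± 6.07, and Opa1 31.7 ± 3.6. The FPKM ranges of Mfn1 and Fis1, of Fis1 and Esrra, and of Esrra and Opa1 overlapped. Polg had a mean FPKM of 12.2 ± 1.86, Tfam 10.1 ± 2.00, Dnm1l 9.51 ± 0.812, and Nrf1 5.22 ± 0.600. The ranges of Polg and Tfam and of Tfam and Dnm1l overlapped, whereas Nrf1 was below Dnm1l in every mouse. These FPKM values are sums over all mRNA transcripts of a gene, and the order depends on that. They leave out lncRNA counts within its exons, which came to 61.9% of the counts of Dnm1l. Ranked by mean FPKM among all gene names, the members lay between the 69.7th percentile (Nrf1) and the 99.4th percentile (Pink1).

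None of the 10 genes passed the test between any groups. With edgeR's quasi-likelihood test on counts summed per gene, 0 of 10 had an adjusted P below 0.05 in HFD against control, where 2.43% of the 15366 genes tested were called. Likewise, 0 of 10 were called in HFD + RSV against HFD (0% of all genes) and in HFD + metformin against HFD (0.013%). Against the control group, 0 of 10 were called in the HFD + RSV group (0.00651%) and in the HFD + metformin group (0%), and 0 of 10 between both treated groups (0%). The test for any difference among the 4 groups called 0.117% of all genes and none of the 10, with Pink1 at the smallest unadjusted P (0.255, adjusted P = 0.584). In these 6 comparisons 0 of 10 were below an unadjusted P of 0.05 by edgeR either, against 24.2%, 4.72%, 8.02%, 15.8%, 9.51%, and 4.68% of all genes. DESeq2 and limma also called 0 of 10 in each comparison. By the study's criteria (unadjusted P < 0.05 and absolute log2FC above 1), 0 of 10 passed, against 4.95%, 1.08%, 1.76%, 2.73%, 1.63%, and 0.97% of all genes. At an unadjusted P below 0.05, DESeq2 found 1 member in HFD + metformin against HFD (Pink1) and limma on FPKM found 1 in HFD against control (Nrf1). In the count data, no member had groups of 4 mice that did not overlap in any of the 6 comparisons, where 18.3%, 4.2%, 3.72%, 11.3%, 3.52%, and 1.56% of all genes had such groups. The log2FC was above 0 for 8, 3, 1, 8, 4, and 8 of the 10 genes, against 47.6%, 51.1%, 53.1%, 48.8%, 51.8%, and 49.3% of all genes.

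**Figure D1:**
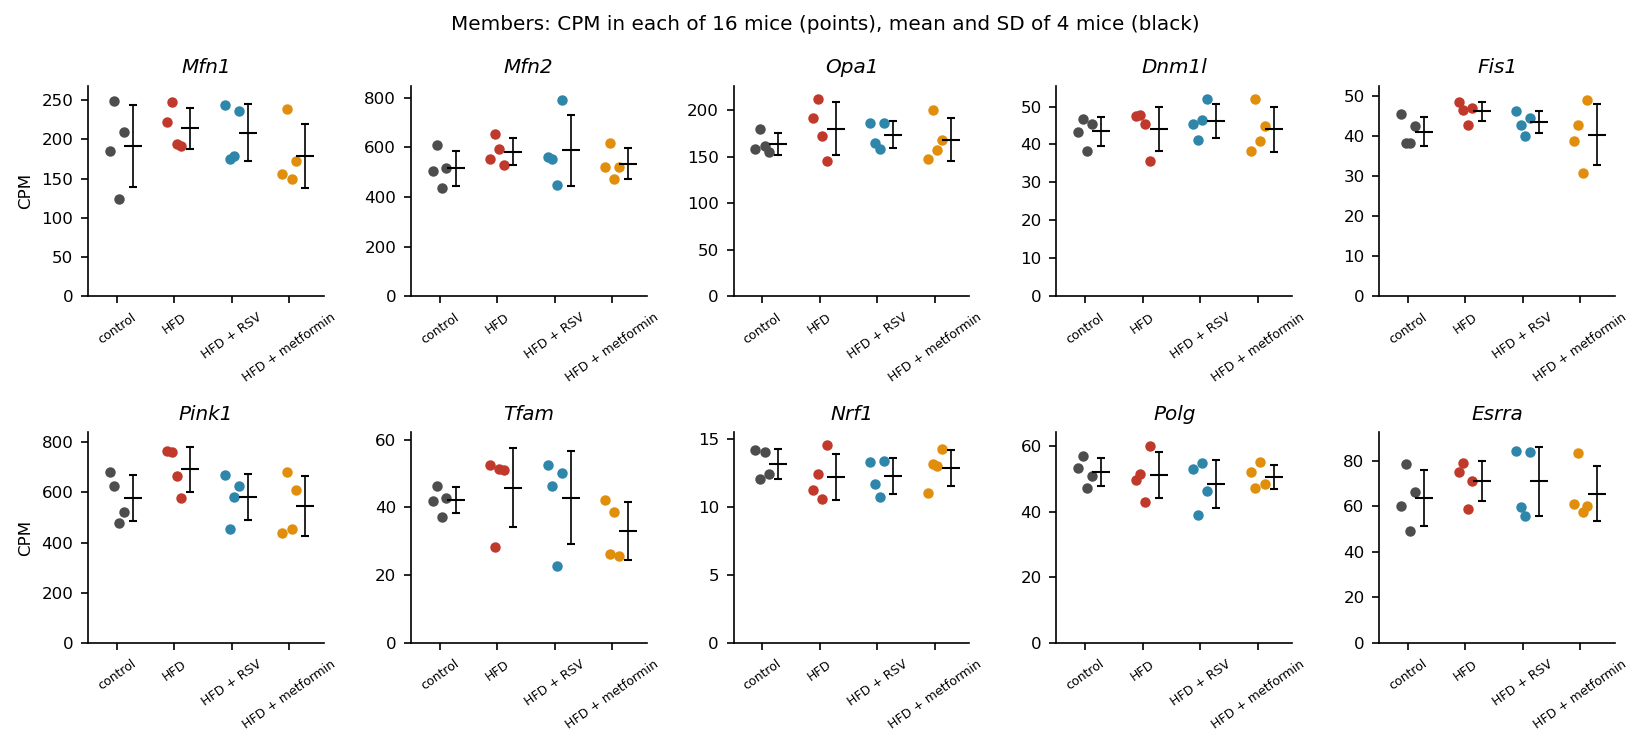
Level of each of the 10 genes in CPM (linear axes from 0) in the 4 groups, with 1 point per mouse and the mean and SD of 4 mice in black. The groups overlap in every panel, and Tfam splits into 4 mice between 22.6 and 28.4 CPM and 12 mice between 37.1 and 52.5 CPM.

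The intervals show how large a change the counts of each gene allow. They are not adjusted for the number of genes tested. A call needed an adjusted P below 0.05, so changes beyond them could also have stayed uncalled. In HFD against control, the log2FC of the 10 genes ranged from -0.11 (Nrf1) to 0.26 (Pink1), with a median of 0.15 against -0.02 for all genes tested. Their 95% intervals together reached from 0.747-fold to 1.59-fold. In HFD + RSV against HFD, log2FC ranged from -0.25 (Pink1) to 0.07 (Dnm1l), and the intervals reached from 0.643-fold to 1.36-fold. In HFD + metformin against HFD, log2FC ranged from -0.47 (Tfam) to 0.08 (Nrf1), and the intervals reached from 0.496-fold to 1.25-fold. In HFD against control, the standard errors of Nrf1, Polg, Dnm1l, Fis1, and Opa1 were 0.11 to 0.12, whereas that of Tfam was 0.25. Without control mouse 3 and HFD + metformin mouse 3, the log2FC in HFD against control ranged from -0.08 to 0.18.

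**Figure D2:**
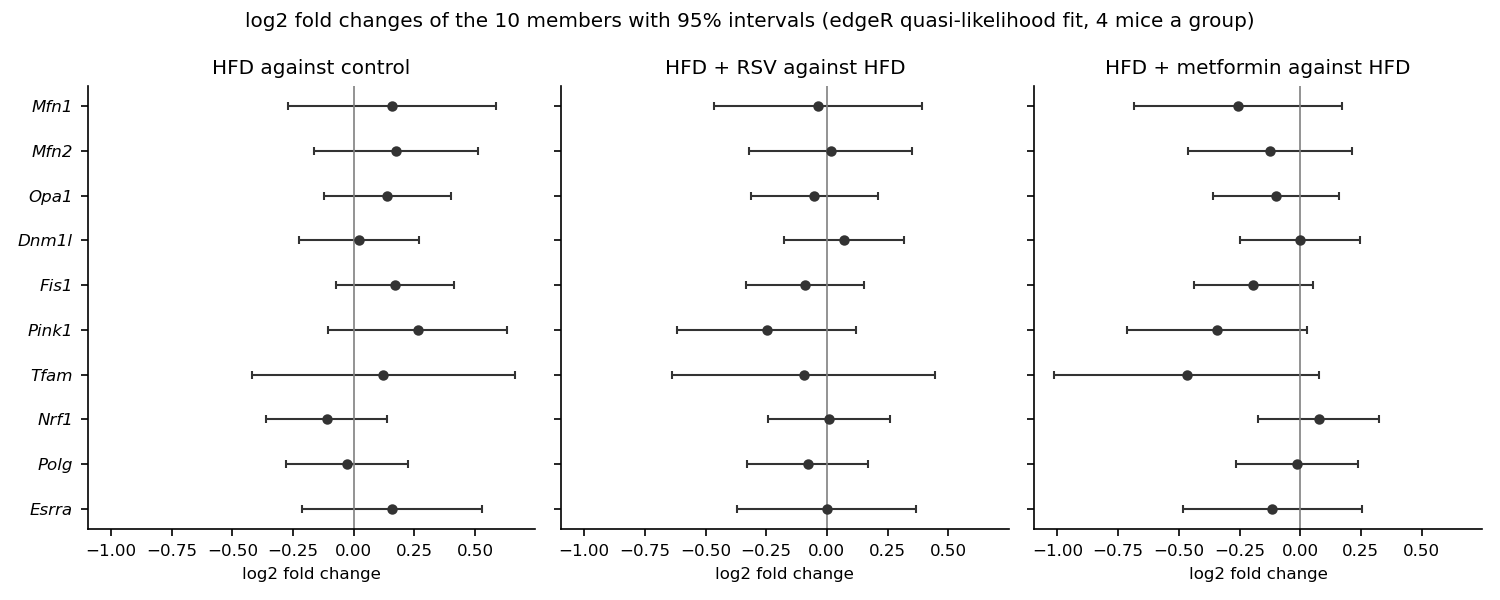
log2 fold changes (points) and 95% intervals (bars) of the 10 genes in 3 comparisons, from the edgeR fit with 4 mice in each group. Every interval crosses 0, and the widest is that of Tfam.

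Most of the variation of each of the 10 genes lay within groups. Of the sum of squares of log2 CPM over the 16 mice, the groups held 5.41% for Dnm1l, 7.85% for Polg, 9.01% for Esrra, and 9.95% for Opa1. They held 10.9% for Nrf1, 13.9% for Mfn2, 15.0% for Mfn1, and 19.6% for Tfam. Fis1 (24.4%) and Pink1 (27.5%) were above the median of all genes tested, which was 24.1%, and the other 8 were below it.

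Among the fusion genes, Mfn1 (chr3:32529465-32579239) had the widest spread. Its level was 185, 248.9, 124, and 209 CPM in the control mice and 222, 247, 194, and 192 CPM in the HFD mice. It was 244, 175, 179, and 235 CPM in the HFD + RSV mice and 156, 239, 150, and 172 CPM in the HFD + metformin mice. Control mouse 3 was the lowest of all mice and control mouse 2 the highest, so the control group spanned the whole range. The log2FC was 0.16 ± 0.20 (SE) in HFD against control and -0.26 ± 0.20 in HFD + metformin against HFD. Without control mouse 3 and HFD + metformin mouse 3, which had the most adipocyte marker counts, the value in HFD against control was -0.01.

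Mfn2 (chr4:147873599-147904704), which also tethers mitochondria to the endoplasmic reticulum, ranged from 436 CPM in a control mouse to 789 CPM in HFD + RSV mouse 4. Its mean was 516 ± 70.7 CPM in control mice, 582 ± 54.8 in HFD mice, 589 ± 143 in HFD + RSV mice, and 534 ± 61.5 in HFD + metformin mice (SD, n = 4 mice each). The mean of the HFD + RSV group was raised by mouse 4, since the other 3 mice lay at 562, 553, and 450 CPM. Opa1 (chr16:29579334-29654884) had group means between 164 ± 11.4 CPM (control) and 180 ± 28.6 CPM (HFD), and HFD mice were both the lowest (145 CPM) and the highest (212 CPM) of all 16.

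The fission genes varied little, with a standard deviation of log2 CPM within groups of 0.17 for Dnm1l and 0.16 for Fis1. The median of all genes tested was 0.25. Nrf1 (0.16), Polg (0.17), and Opa1 (0.17) varied as little, so this was not particular to the fission genes. Dnm1l (chr16:16312230-16358959) had group means of 43.4 ± 3.71, 44.1 ± 5.70, 46.2 ± 4.47, and 44.0 ± 5.95 CPM in the control, HFD, HFD + RSV, and HFD + metformin groups. Its log2FC in HFD against control was 0.02, with a 95% interval from -0.23 to 0.27. Fis1 (chr5:136953275-136966234) had levels of 45.5, 38.2, 38.2, and 42.4 CPM in the control mice and 48.4, 46.4, 42.8, and 47.0 CPM in the HFD mice. Of the HFD mice, 3 were above all control mice and 1 was not. The log2FC was 0.17 ± 0.11 (edgeR, adjusted P = 0.377). The HFD + metformin mice ranged from 30.9 to 49.1 CPM and covered all other mice.

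Pink1 (chr4:138313409-138326307), the kinase gene, had the largest share of its variation between the 4 groups. Its level was 679, 625, 479, and 521 CPM in the control mice and 764, 761, 665, and 577 CPM in the HFD mice. It was 669, 454, 582, and 624 CPM in the HFD + RSV mice and 437, 681, 453, and 611 CPM in the HFD + metformin mice. HFD mice 1 and 2 were the highest of all 16, while HFD mice 3 and 4 lay within the range of each other group. The log2FC was 0.26 ± 0.17 in HFD against control (edgeR, adjusted P = 0.364) and -0.25 ± 0.17 in HFD + RSV against HFD (adjusted P = 0.999). It was -0.34 ± 0.17 in HFD + metformin against HFD (unadjusted P = 0.0673, adjusted P = 0.633). All 3 comparisons share the HFD mice. The genes whose log2 CPM was most like that of Pink1 over the 16 mice were Pmpca (r = 0.924), which encodes a subunit of the mitochondrial processing peptidase, Zyg11b (r = 0.911), and Ppp1r2-ps4 (r = 0.905), a pseudogene.

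Among the biogenesis genes, Esrra (chr19:6910977-6921813), Nrf1 (chr6:30047988-30153458), and Polg (chr7:79446231-79466362) had overlapping levels in all groups. Esrra was at 60.3, 78.7, 49.3, and 66.2 CPM in the control mice and 75.2, 78.9, 58.7, and 71.2 CPM in the HFD mice. It was at 84.4, 59.8, 55.9, and 83.7 CPM in the HFD + RSV mice and 61.1, 83.4, 57.5, and 60.3 CPM in the HFD + metformin mice. The HFD + RSV mice fell into a high and a low pair, and a single HFD + metformin mouse stood above the other 3. Nrf1 was the lowest of the set, from 10.6 to 14.6 CPM, with group means between 12.2 and 13.2 CPM. Polg ranged from 38.8 to 60.0 CPM, with group means between 48.3 and 52.1 CPM.

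Tfam (chr10:71225464-71238280) differed from the other 9 genes in falling into separate levels. It was at 41.8, 46.4, 37.1, and 42.9 CPM in the control mice and 52.4, 28.4, 51.4, and 50.9 CPM in the HFD mice. It was at 52.5, 46.2, 22.6, and 50.03 CPM in the HFD + RSV mice and 42.1, 26.1, 38.7, and 25.5 CPM in the HFD + metformin mice. HFD mouse 2, HFD + RSV mouse 3, and HFD + metformin mice 2 and 4 made up the low level, at 22.6 to 28.4 CPM, and no control mouse did. In exactly these 4 mice, the lncRNA data held 473, 466, 534, and 518 counts for NONMMUT006148.2. In the other 12 mice this lncRNA had 1 count each. Its span (chr10:71225464-71229120) overlaps exons of Tfam, in which all of its 3270 bases could lie. Only its span and length were read, and the data give no strand for it. Reads of the gene and of the lncRNA could therefore not be told apart.

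When the counts of this lncRNA were added to those of Tfam, an alternative chosen after seeing the data, the separate levels were gone. The 4 mice then lay at 43.3 to 48.0 CPM and the other 12 at 37.1 to 52.5 CPM. The sums were 41.8, 46.4, 37.1, and 42.9 CPM in the control mice and 52.5, 48.0, 51.4, and 50.9 CPM in the HFD mice. They were 52.5, 46.2, 43.3, and 50.1 CPM in the HFD + RSV mice and 42.2, 46.1, 38.8, and 44.1 CPM in the HFD + metformin mice. All 4 HFD mice were then above all control mice and above all HFD + metformin mice, as were the groups of 18.3% and 3.72% of all genes in these comparisons in either direction. The log2FC of HFD against control was 0.27 ± 0.08 (1.21-fold, 95% interval 1.06 to 1.36), and edgeR gave an unadjusted P of 0.00588 and an adjusted P of 0.0824. HFD + metformin against HFD had a log2FC of -0.24 ± 0.08 (unadjusted P = 0.0106, adjusted P = 0.603), and HFD + RSV against HFD -0.08 ± 0.08 (adjusted P = 0.999). The gene was therefore not called with either count, and HFD + metformin against control went from -0.35 without the lncRNA to 0.02 with it.

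**Figure D3:**
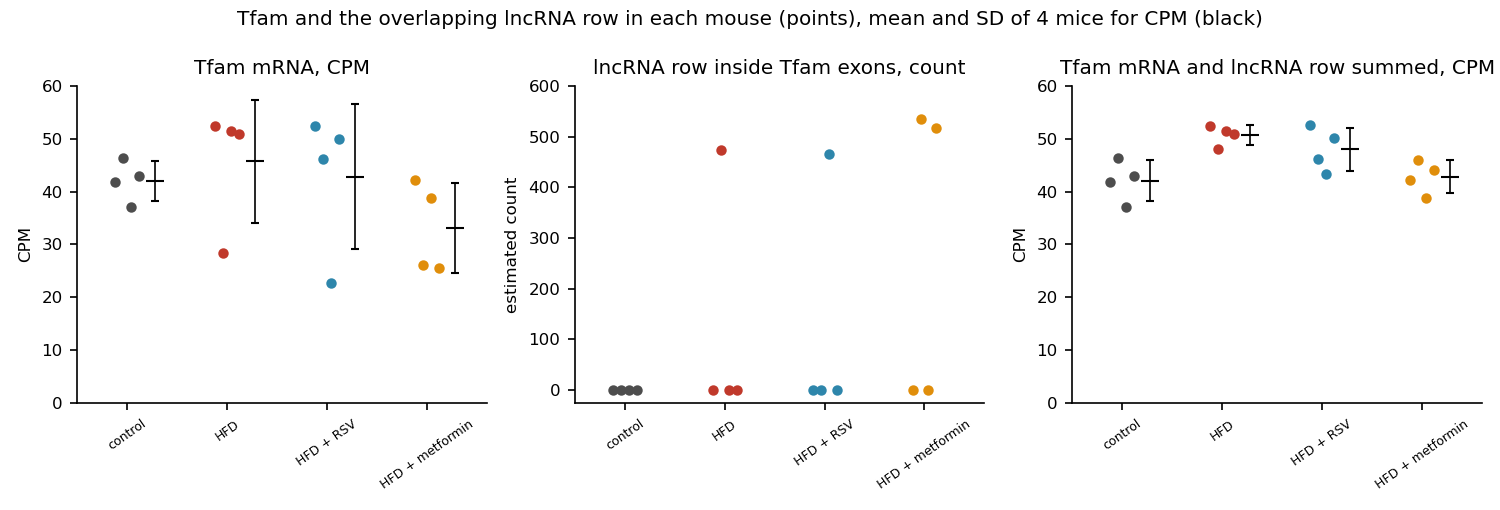
Tfam in CPM (left), counts of the overlapping lncRNA NONMMUT006148.2 (middle), and their summed CPM (right) in the 4 groups, with 1 point per mouse and the mean and SD of 4 mice beside the CPM values. The 4 mice with 466 to 534 lncRNA counts are the 4 with the lowest Tfam level, and the summed level of every HFD mouse is above that of every control mouse.

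Other members shared exons with lncRNAs as well. NONMMUT025634.2 (chr16:16312245-16313744) lay whole within exons of Dnm1l and had 361 to 925 counts in every mouse, so that lncRNA counts in its exons came to 61.9% of the counts of Dnm1l. With them added, the log2FC of Dnm1l in HFD against control was -0.01 ± 0.13. NONMMUT062326.2 within Polg had either 2 to 4 or 41 to 83 counts, and the counts added were 3.15% of those of Polg and 1.12% of those of Mfn1. The other 6 genes had no lncRNA that lay mostly within their exons.

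The 10 genes had 81 transcripts, and 60 of them were among the 44573 transcripts tested. Of these, 0 of 60 were called in HFD against control (0.0157% of all transcripts), HFD + RSV against HFD (0%), or HFD + metformin against HFD (0.00449%). Likewise, 0 of 60 were called in HFD + RSV against control (0.00449%), HFD + metformin against control (0.00224%), and HFD + RSV against HFD + metformin (0.00673%). At an unadjusted P below 0.05, 5, 4, and 3 of 60 were found, against 13.1%, 5.02%, and 6.07% of all transcripts, and in the other 3 comparisons 2, 0, and 3 of 60, against 9.26%, 6.69%, and 4.79%. By the study's criteria, 2, 2, and 0 of 60 passed in the first 3 comparisons, against 5.12%, 2.68%, and 3.02% of all transcripts, and 0, 0, and 1 in the other 3, against 3.66%, 2.97%, and 2.63%. Those that passed were Opa1-201 and Opa1-207, both with low counts. A single transcript held most of the count of Tfam (Tfam-201, mean 96.4%), Pink1 (Pink1-201, 91.8%), Opa1 (Opa1-206, 91.7%), Esrra (Esrra-201, 88.4%), Fis1 (Fis1-201, 83.0%), and Mfn1 (Mfn1-201, 79.8%). Mfn2-203 held 63.7% of the count of Mfn2 and ranged from 41.7% to 83.2% among the mice. For Polg and Nrf1 the leading transcripts, Polg-201 and Nrf1-205, held 52.9% and 26.6% with ranges of 33.1% to 68.5% and 7.50% to 43.3%.

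Dnm1l is spliced into forms that differ in exons of the coding sequence, and its 3 transcripts had counts of 101 or more in each mouse. The exons that set these forms apart in GENCODE M21 are shown with their GRCm38 positions on the minus strand. The deposited lengths of Dnm1l-202, Dnm1l-201, and Dnm1l-203 were 4056, 4017, and 4068 bases, against 3966, 3951, and 3893 bases in GENCODE. Whether the counted forms hold exactly these exons is therefore not known.
Exon of Dnm1l-202 alone (chr16:16342697-16342735): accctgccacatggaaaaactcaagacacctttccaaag
First exon of Dnm1l-203 alone (chr16:16318764-16318841): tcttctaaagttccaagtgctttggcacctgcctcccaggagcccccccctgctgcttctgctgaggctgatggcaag
Second exon of Dnm1l-203 alone (chr16:16318445-16318477): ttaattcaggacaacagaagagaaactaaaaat
The lengths of 39, 78, and 33 bases are multiples of 3, and in GENCODE Dnm1l-201 has none of these exons. Dnm1l-202 held 46.6% of the count of Dnm1l on average, Dnm1l-201 32.8%, and Dnm1l-203 20.6%.

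The share of Dnm1l-203 was 24.1%, 24.1%, 25.2%, and 19.8% in the control mice and 16.04%, 8.81%, 15.5%, and 21.8% in the HFD mice. It was 21.8%, 16.1%, 17.7%, and 20.6% in the HFD + RSV mice and 29.7%, 16.4%, 25.3%, and 26.6% in the HFD + metformin mice. HFD mouse 2 was the lowest, and the groups overlapped. In the transcript fit, the log2FC of Dnm1l-203 was -0.58 ± 0.21 in HFD against control (edgeR, unadjusted P = 0.0136, adjusted P = 0.249). It was 0.65 ± 0.21 in HFD + metformin against HFD (unadjusted P = 0.00707, adjusted P = 0.808). These comparisons share the HFD mice, and neither passed the adjusted threshold. Of the 3 transcripts with the highest mean FPKM of each gene, those also below an unadjusted P of 0.05 were Pink1-202, Mfn1-203, and Polg-204. Pink1-202 was at -0.91 ± 0.30 in HFD + RSV against HFD (adjusted P = 0.953). Mfn1-203, a form with a retained intron, was at -0.73 ± 0.29 in HFD + metformin against HFD (adjusted P = 0.809). Polg-204, also a form with a retained intron, was at -0.57 ± 0.24 in HFD + RSV against control and was not called. The remaining ones were named after their values were seen. In HFD against control, they were Opa1-201 at 2.15 ± 0.68, Opa1-207 at 1.46 ± 0.55, Fis1-202 at -0.73 ± 0.27, and Polg-207 at -0.52 ± 0.24. In HFD + RSV against HFD they were Opa1-201 at -2.31 ± 0.69, Opa1-207 at -1.61 ± 0.56, and Opa1-202 at 0.96 ± 0.43, and in HFD + metformin against HFD Polg-207 at 0.67 ± 0.24. In HFD + RSV against control the remaining one was Fis1-202 at -0.83 ± 0.27. In HFD + RSV against HFD + metformin they were Opa1-207 at -1.30 ± 0.56, Polg-205 at -0.996 ± 0.44, and Polg-216 at -0.65 ± 0.30. Opa1-201 and Opa1-207, which passed the study's criteria wherever they are named here, had at most 42 and 52 counts in any mouse.

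**Figure D4:**
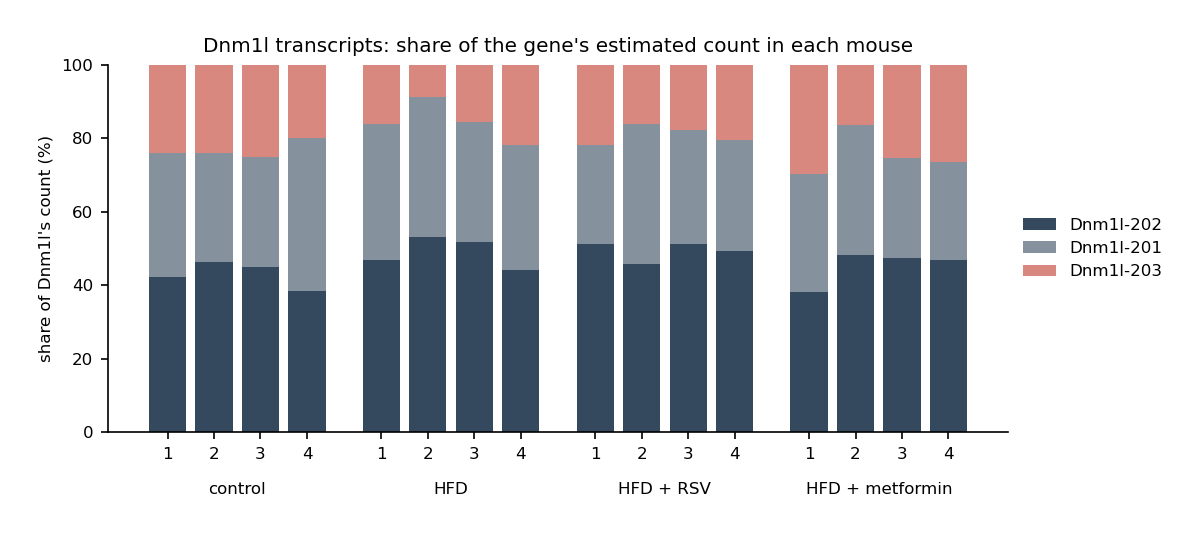
Share of the count of Dnm1l (vertical axis, percent) held by its 3 transcripts in each mouse, numbered 1 to 4 within each group. Dnm1l-203 ranges from 8.81% in HFD mouse 2 to 29.7% in HFD + metformin mouse 1.

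Within groups, several of the genes rose and fell together from mouse to mouse. After the group means were subtracted from log2 CPM, 45 pairs of the 10 genes were compared over the 16 mice with exact two-sided permutation tests within groups (331776 arrangements) and Benjamini-Hochberg adjustment over the 45 pairs. Adjusted P was below 0.05 for 12 pairs by Pearson's r and for 8 of these also by Spearman's rho, all positive and all among Mfn1, Mfn2, Opa1, Dnm1l, Pink1, and Esrra. The closest pair was Mfn1 and Esrra, with r = 0.924 (permutation P = 6.93e-05, adjusted P = 0.00312) and rho = 0.926 (permutation P = 0.000301, adjusted P = 0.0136). Without the 2 mice farthest from the median of Mfn1, r was 0.909. Opa1 and Dnm1l, which act in opposite directions on the organelle, had r = 0.809 (exact permutation, adjusted P = 0.0134) and rho = 0.75 (adjusted P = 0.0342), and r was 0.752 without 2 mice. Mfn1 and Mfn2 had r = 0.742 (exact permutation, adjusted P = 0.0134) and rho = 0.765 (adjusted P = 0.0318), and r was 0.693 without 2 mice. The 12 pairs had r of 0.627 or above and made up 26.7% of the 45 pairs, whereas 3.95% of all pairs of the 15366 genes reached that r. That cutoff was the r of the weakest of the 12 pairs, and the pairs share genes. The shares are therefore no test of whether these genes vary together more than others do. All pairs were measured in the same libraries, and no share was computed among genes of like level.

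The levels of these 6 genes were compared with the adipocyte marker counts within groups. Of 60 relations between the 10 genes and 6 measures of the libraries, 8 had an adjusted P below 0.05 by Pearson's r, and 6 of these were with the summed white adipocyte markers. The relation was r = -0.842 and rho = -0.894 for Opa1 (exact permutation, adjusted P = 0.00524 and 0.00913) and r = -0.778 and rho = -0.806 for Mfn1 (adjusted P = 0.00425 and 0.0076). It was r = -0.80 for Dnm1l, -0.712 for Esrra, and -0.706 for Mfn2, each below an adjusted P of 0.05 by both measures. For Pink1 it was r = -0.817 (exact permutation, adjusted P = 0.0202) and rho = -0.747 (adjusted P = 0.069). Of the 10 genes, 6 had r of -0.706 or below, against 5.53% of all genes tested. That cutoff was the r of the weakest of the 6 genes, so it came from the same data and the shares are no test. Without the 2 mice farthest from the median of the marker sum, r was between -0.647 and -0.863 for these 6 genes. For Fis1, Nrf1, Tfam, and Polg, r was -0.653, -0.181, 0.25, and 0.261, with adjusted permutation P of 0.235 or above by Pearson's r. The remaining 2 relations were of Opa1 with the total mRNA count (r = 0.712, rho = 0.815) and of Pink1 with the muscle fibre markers (r = 0.709, rho = 0.668, the latter not below the threshold). The muscle fibre sum was mostly Ttn. Slow and fast fibre markers and endothelial markers had no relation below the threshold. The closest were of Fis1 with the fast fibre markers (r = 0.814 and rho = 0.585, exact permutation, adjusted P = 0.0626 and 0.163) and of Opa1 with the endothelial markers (r = 0.653 and rho = 0.509, adjusted P = 0.0798 and 0.279). CPM is a share of the library, and the part of adipocyte RNA in the levels of the 6 genes was not tested.

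**Figure D5:**
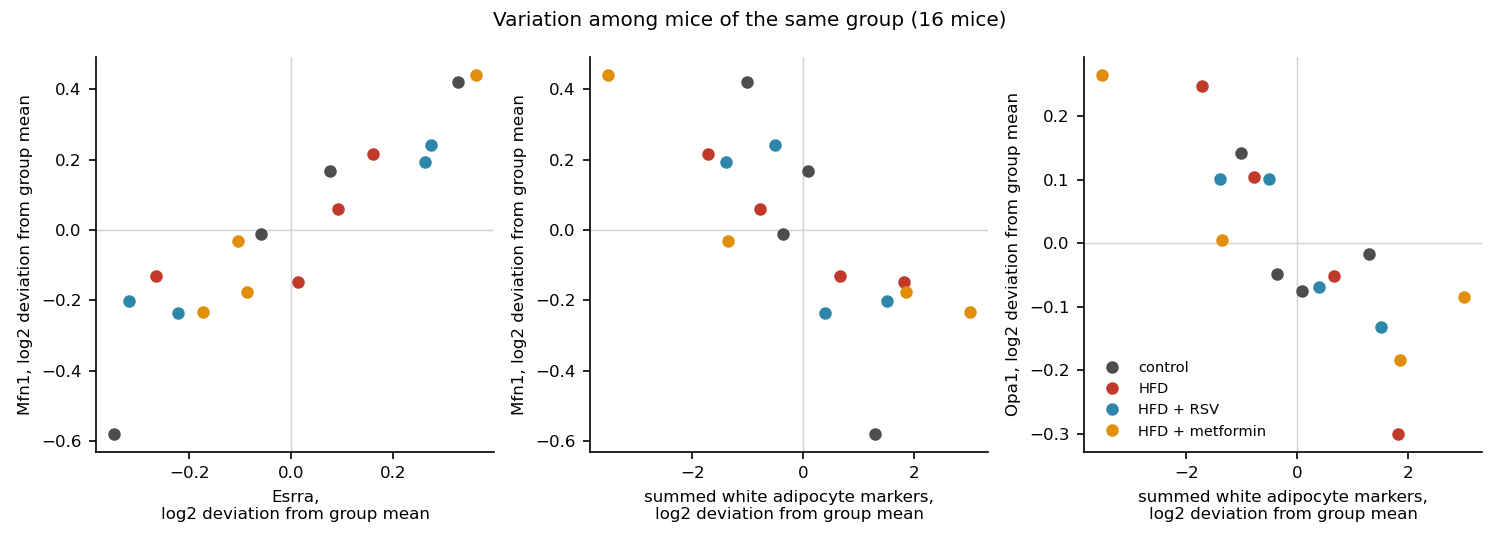
Deviations of log2 CPM from the group mean in the 16 mice for Mfn1 against Esrra (left), and for Mfn1 (middle) and Opa1 (right) against the deviation of the summed white adipocyte markers (log2), with colors for the 4 groups. Mfn1 rises with Esrra (r = 0.924), and Mfn1 and Opa1 fall with the marker sum (r = -0.778 and -0.842).

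The partners of these genes were read from 7 lists with 88 genes tested. In HFD against control, 2 rose and 2 fell, which is 4.55% against 2.43% of all genes tested (1.32% higher and 1.11% lower). At an unadjusted P below 0.05 there were 12 of 88 (13.6%, against 24.2% of all genes). In HFD + RSV against HFD and in HFD + metformin against HFD, 0 of 88 were called by edgeR. Below an unadjusted P of 0.05 were 2 (2.27%, against 4.72% of all genes) and 3 (3.41%, against 8.02%). Control and HFD mice did not overlap for 8 of the 88 genes (9.09%, against 18.3% of all genes), the 4 called genes among them. The summed white adipocyte markers were below those of every control mouse in all HFD mice except mouse 4. Lep of the same list did not follow the sum, at 5.22, 2.90, 10.6, and 26.4 CPM in the control mice. Its level was 17.7, 4.32, 58.6, and 37.8 CPM in the HFD mice. Of the 5 brown adipocyte markers, 2 were called lower in HFD against control, and no tested marker of the other lists was called there. The median sums in control and HFD mice were 844 and 28.3 CPM for slow fibre, 46632 and 77952 CPM for fast fibre, and 121 and 54.9 CPM for Schwann cell markers. The fast fibre sums overlapped, at 42188 to 73630 CPM in control and 72340 to 80162 CPM in HFD mice. The Schwann cell sums, 60.6 to 211 and 43.3 to 63.7 CPM, overlapped as well, and so did the slow fibre sums given above. Myh1 of the fast fibre list was at 3830, 7288, 3314, and 10212 CPM in control mice and 3790, 7032, 5238, and 3502 CPM in HFD mice. The part of these cells in the 4 calls was not tested.

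Of the 10 fission factors and adaptors tested, 1 rose. Gdap1, an outer membrane protein that promotes fission and is mutated in a hereditary neuropathy, was at 9.94, 9.91, 8.01, and 2.91 CPM in the control mice and 36.6, 31.9, 38.6, and 11.9 CPM in the HFD mice. It was 25.0 to 33.6 CPM in the HFD + RSV mice and 9.59 to 36.9 CPM in the HFD + metformin mice. The log2FC in HFD against control was 1.95 ± 0.45 (3.86-fold, edgeR, adjusted P = 0.0438). The call was lost in 11 of 16 fits that left out a mouse, with an adjusted P of up to 0.123. The median log2FC of the list was 0.02, against -0.02 for all genes tested.

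Of the 9 partners of Pink1 in mitophagy, 1 fell. Bnip3, a mitophagy receptor of the outer membrane, was at 283, 304, 345, and 289 CPM in the control mice and 195, 191, 190, and 193 CPM in the HFD mice. It was 179 to 230 CPM in the HFD + RSV mice and 196 to 326 CPM in the HFD + metformin mice. The log2FC in HFD against control was -0.67 ± 0.14 (0.63-fold, edgeR, adjusted P = 0.034). The call was lost in 7 of 16 fits that left out a mouse, with an adjusted P of up to 0.107. The HFD mice lay close together, and the log2FC against them was 0.10 ± 0.14 for the HFD + RSV group and 0.32 ± 0.14 for the HFD + metformin group (adjusted P = 0.999 and 0.618).

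Of the 14 biogenesis coactivators and transcription factors, 1 fell. Nfe2l2, which encodes the oxidative stress regulator NRF2 and is distinct from Nrf1, was at 65.6, 65.8, 73.7, and 61.9 CPM in the control mice and 50.6, 55.0, 44.6, and 43.1 CPM in the HFD mice (log2FC = -0.47 ± 0.10, edgeR, adjusted P = 0.0346). The log2FC against HFD was 0.03 ± 0.10 for the HFD + RSV group and -0.01 ± 0.10 for the HFD + metformin group, with 44.4 to 55.1 CPM under RSV and 44.9 to 53.2 CPM under metformin. The call was lost in 6 of 16 fits that left out a mouse, with an adjusted P of up to 0.107.

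Of the 19 mtDNA replication and transcription factors, 1 rose. Mgme1, a nuclease that processes mitochondrial DNA ends, was at 10.95, 10.2, 11.5, and 10.4 CPM in the control mice and 15.3, 15.5, 14.5, and 14.2 CPM in the HFD mice (log2FC = 0.47 ± 0.08, edgeR, adjusted P = 0.0176). The call was lost in 3 of 16 fits that left out a mouse, with an adjusted P of up to 0.0625. In the HFD + RSV mice it was at 12.7, 13.2, 11.7, and 12.2 CPM, below all HFD mice (log2FC = -0.26 ± 0.08, edgeR, unadjusted P = 0.00623, adjusted P = 0.999). In this comparison the groups did not overlap for 3 of the 88 genes of the lists (3.41%), against 4.2% of all genes.

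No gene was called in the other 3 lists. In HFD against control, the smallest P values among the 12 fusion regulators tested were those of Oma1, a protease that cuts Opa1, at 0.35 ± 0.15 (edgeR, adjusted P = 0.159), and Mtch2, at -0.31 ± 0.13 (adjusted P = 0.172). Of the 13 mtDNA-encoded proteins, the median log2FC was 0.01, 0.10, and 0.05 in the 3 comparisons, with a range from -0.12 to 0.23. The 2 with the smallest P in any of the 3 were mt-Co3 and mt-Nd3, both lowest in HFD mouse 4 within the HFD group (3646 and 320 CPM). Of the 11 oxidative metabolism genes known as targets of ERR and PGC-1, Pdk4, which limits pyruvate use, had a log2FC of -0.44 ± 0.26 in HFD against control (edgeR, adjusted P = 0.306).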

How the data were processed

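Skeletal muscle RNA of 16 mice, without ribosomal RNA, was sequenced from both fragment ends. Per the labels, the submitters' processing notes name fastp, HISAT2, and GRCm38, and the study's methods name StringTie for counting and TMM scaling before the FPKM values. The authors deposited estimated counts and FPKM values of each transcript and mouse, in a table of 82388 mRNA transcripts and a table of 58245 lncRNA transcripts. The deposited estimated counts were whole numbers. Of the mRNA transcripts, 82089 were found in GENCODE M21, 97.75% of them with equal coordinates, which placed them on GRCm38. Among the mRNAs, 4 transcripts split over 2 lines were joined, and 22 gene names turned into dates were read back by gene ID.

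Counts were summed per gene name, kept where filterByExpr passed them within groups (at least 10 counts, and 15 in total), scaled by TMM, and tested with the robust quasi-likelihood test of edgeR 4.0.16 in R 4.3.3 over all 16 mice in 1 fit. A gene was called at a Benjamini-Hochberg adjusted P < 0.05 over all 15366 genes, and transcripts were fitted likewise. The coefficient of variation between mice was 0.261 for genes and 0.582 for transcripts. CPM used TMM-scaled library sizes. The fit was tested on simulated data. Rank correlations between libraries were 0.96 to 0.977 within groups and 0.957 to 0.978 between groups, and no 2 libraries were identical. Each library is 1 mouse, and the labels name no batch.

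Alternatives were RLE size factors, DESeq2 1.42.0, no filter, fits to 2 groups, fits without mitochondrially encoded genes or with lncRNAs added as features, limma 3.58.1 on log2(FPKM + 0.1), the study's criteria (unadjusted P < 0.05 and absolute log2FC above 1), and leaving out each mouse. After seeing the data, overlapping lncRNA counts were added to the members, and control mouse 3 and HFD + metformin mouse 3 were left out together.

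The members and gene lists were chosen with earlier results of these data known. Named genes are the 10 members, genes of each list called in the 3 main comparisons (at most 4, or the 2 with the smallest P where none was called), the 3 genes most like the member with the smallest P among the 4 groups, and up to 3 transcripts per member by mean FPKM. NONMMUT006148.2, NONMMUT025634.2, and NONMMUT062326.2 were named after their values were seen, as were the pairs and measures of the correlations. Marchf5, Twnk, and Atp5f1b were read where present under their older symbols. A result that the rule names is not reported here.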

Additional observations from a re-analysis of the deposited data

Results flagged for a closer look

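In HFD mice, Tfam was at 28.4 CPM in mouse 2 and at 50.9 CPM or more in the other 3, a gap larger than expected from 4 values by Dixon's criterion. In the HFD + metformin group, Esrra was at 83.4 CPM in mouse 2 and at most 61.1 CPM in the other 3. In the HFD group, Pdk4 was at 4950 CPM in mouse 2 and at most 3114 CPM in the other 3. Chance flags about 1 in 20 groups, and 3 of 80 gene and group sets were flagged here. The lncRNA NONMMUT006148.2, which overlaps exons of Tfam and is outside the mRNA data, had 466 to 534 counts in 4 mice. These were HFD mouse 2, HFD + RSV mouse 3, and HFD + metformin mice 2 and 4. It had 1 count in each of the other 12 mice, which include every control mouse and mice of each other group.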

How the results depend on the processing

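No member was called in any of the 6 comparisons under any of the 25 alternatives, with 1500 values in all and a smallest adjusted P of 0.0824, that of Tfam with the lncRNA counts added. Of these values, 100 had another sign than the main one, and in none of them did both values exceed their standard error, so no direction is read from a member's log2FC. Only the FPKM values moved the median log2FC of all genes by over 0.1, to -0.16 in HFD against control and 0.12 in HFD + metformin against HFD. The count of called genes in HFD against control (374, of which 203 were higher and 171 lower) was 1544 with DESeq2, 998 with 2 groups, 555 without control 3 and HFD + metformin 3, 158 without a filter, 197 with limma on FPKM (77 higher and 120 lower), and 761 by the study's criteria. Leaving out each mouse gave 16 (without control 2) to 1587 (without HFD + metformin 3).

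In the other comparisons, DESeq2 called 8 genes in HFD + RSV against HFD (0 by edgeR), 31 in HFD + metformin against HFD (2), 359 in HFD + RSV against control (1), 141 in HFD + metformin against control (0), and 10 in HFD + RSV against HFD + metformin (0). In the same order, the study's criteria gave 166, 271, 419, 251, and 149, and limma on FPKM 0, 0, 0, 2, and 0. Without control 3 and HFD + metformin 3, HFD + metformin against HFD had 0, HFD + RSV against control 53, and HFD + metformin against control 38, and with 2 groups HFD + metformin against HFD had 1. Leaving out each mouse gave 0 to 1, 0 to 2, 0 to 261, 0 to 180, and 0 to 0. The causes were not tested.

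Of 16 fits that left out a mouse, Mgme1 stayed called in 13 (lost without control 2, HFD 1, or HFD 2), Nfe2l2 in 10 (lost without control 2 or 3 or any HFD mouse), Bnip3 in 9 (lost without control 2, 3, or 4 or any HFD mouse), and Gdap1 in 5. Gdap1 was kept without control 1, HFD 4, or HFD + metformin 2, 3, or 4. All 4 kept their direction, and the largest adjusted P was 0.123 among these fits. Without a filter Gdap1 (0.0612) and Nfe2l2 (0.0528) were lost, and with limma Mgme1 (0.133). No paired analysis was possible because the replicate numbers only name the mice and pair none of them across the groups.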
